A study of Mus musculus with 8 samples.

Results

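Macrophage migration inhibitory factor (Mif), its homologue D-dopachrome tautomerase (Ddt), the receptors Cd74, Cd44, Cxcr2, Cxcr4 and Ackr3, and the intracellular partner Cops5 were followed in mouse sarcoma cells by gene and by transcript. These 8 genes were chosen by name, out of 35498 genes to which transcripts could be assigned, and they hold 31 of the 115977 assigned transcripts. The study sequenced bulk RNA of sarcoma cells sorted out of tumours, and asked what the tumour's own Mif does to pathways inside those cells. Per the labels, all cells descend from C57BL/6 mesenchymal stem cells that lack p53 (p53-/-) and overexpress Ccne1, which had formed tumours in a first set of mice. The cells then received a control guide RNA (sgSCR, labelled Mif-wildtype) or a guide RNA against Mif (sgMif, labelled Mif-knockout), each with the nuclease Cas9, or a control short hairpin RNA (shSCR, labelled Mif-wildtype) or a hairpin against Mif (shMif, labelled Mif-knockdown). The study's design text gives Cas9 for the hairpin cells too, while the sample protocol gives it for the guide RNA samples alone. The cells grew as tumours on polyurethane scaffolds under the skin of secondary recipients and were sorted by a fluorescent marker. There were 2 libraries in each of the 4 groups, here called 1 and 2 as in the titles. Whether a pair of libraries stems from different mice is not stated in the labels, and the p-values below then reflect only how far these libraries lie apart, which can be technical. Not given in the sources used here were the guide and hairpin sequences, the place of the cut, the age of the mice, and whether the edited cells were a clone or a pool.

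MIF is a small secreted cytokine that also acts as a tautomerase enzyme, and it is stored ready-made in the cytoplasm of many cells. Outside the cell it binds CD74, which signals together with CD44, and it can also engage the chemokine receptors CXCR2, CXCR4 and ACKR3. DDT is a structural relative that shares the CD74 receptor. Inside the cell MIF binds COPS5 (JAB1), the catalytic subunit of the COP9 signalosome, and tumours of many kinds contain abundant MIF.

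Libraries held between 19042235 and 51819308 estimated reads, and 16309 genes passed the filter on low counts, all 8 members among them. Libraries of the same group differed by more than counting noise, most of all the shSCR pair, whose chi-square divided by its degrees of freedom was 120, against 24.4 to 41.8 in the other groups. The libraries fell into a class with 1329 to 2541 CPM (reads scaled to library size, not to gene length) on olfactory receptor genes (both sgSCR libraries, sgMif 1, shSCR 1 and shMif 1) and a class with 379 to 552 CPM (sgMif 2, shSCR 2 and shMif 2). The mesenchymal markers Col1a1, Col1a2, Col3a1, Pdgfrb, Thy1 and Vim, defining genes of the labelled cell type, summed to 15770 to 36388 CPM. Nearly all of that sum was the collagen genes and Vim. Thy1 stood at 2.70 and 3.98 CPM in shSCR and at 3.29 to 24.3 CPM in the other libraries. The pan-leukocyte gene Ptprc stood at a low level in every library, 6.73 to 24.8 CPM, and whether these reads came from immune cells was not tested.

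Mif was by far the highest of the 8 genes in length-corrected level, and Cxcr2 the lowest. In TPM (a level scaled to library size and corrected for transcript length) the medians over the 8 libraries were 822 for Mif, 138 for Cd44, 61.1 for Ackr3, 53.3 for Ddt, 51.6 for Cops5, 34.7 for Cd74, 7.07 for Cxcr4 and 1.04 for Cxcr2. Mif exceeded Cd44 in 8 of 8 libraries, by 3.78 to 12.5 times. Cd44 exceeded Ackr3, Cd74 exceeded Cxcr4 and Cxcr4 exceeded Cxcr2 in 8 of 8 libraries as well. Ackr3 and Ddt could not be ordered, as Ackr3 was the higher in 4 of 8 libraries. Ddt exceeded Cops5 in 6 of 8 libraries and Cops5 exceeded Cd74 in 7 of 8, the exception being shMif 1. The widest spread over the 8 libraries was that of Cxcr4, 6.86-fold from the lowest to the highest TPM, and the narrowest was that of Cops5, 1.36-fold.

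**Figure D1:**
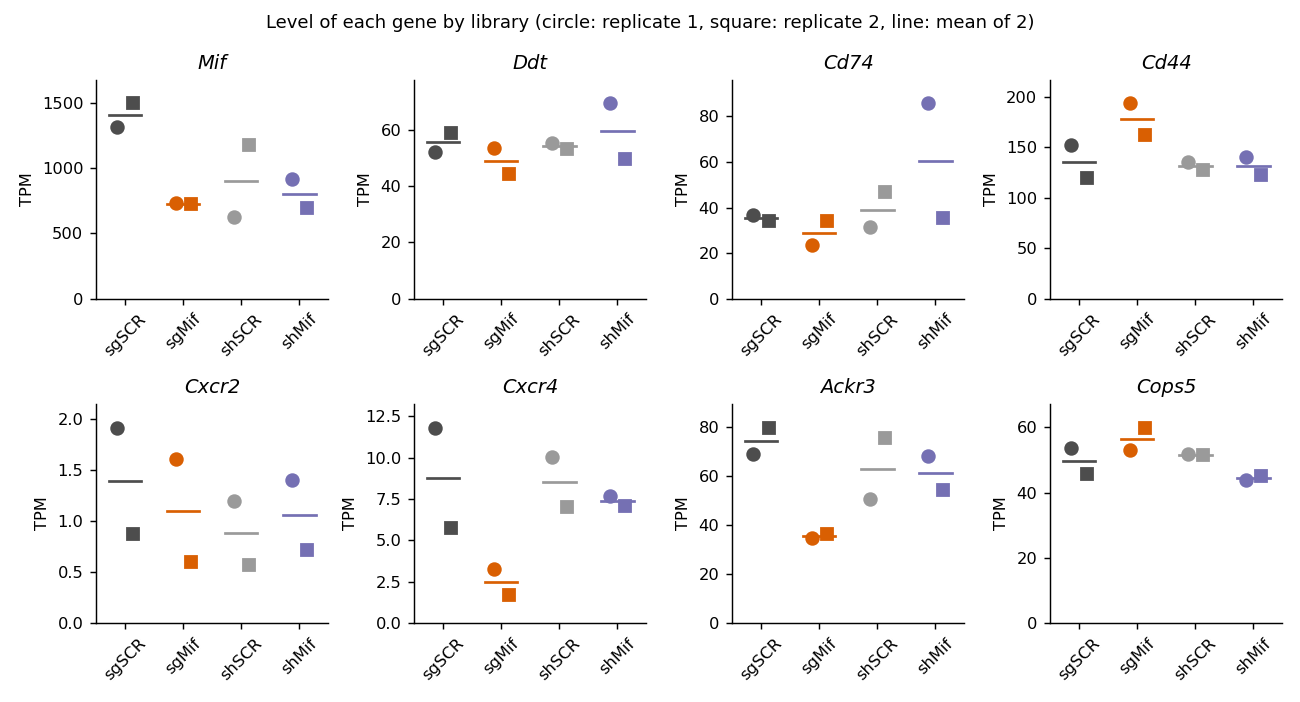
TPM of each of the 8 genes (vertical axes, linear, from 0) in the 2 libraries of each group (circle, replicate 1; square, replicate 2), with a line at the mean of 2. Both sgMif libraries lie below both sgSCR libraries for Mif, Cxcr4 and Ackr3 and above them for Cd44, while shMif 1 stands apart for Cd74 at 85.8 TPM.

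Of the 8 genes, Ackr3 was the only one to pass the test in sgMif against sgSCR (edgeR quasi-likelihood, adjusted p under 0.05 over all genes), and it was lower. Beside it, 0.987% of all genes tested passed in that comparison, 4 of the 8 members had an unadjusted p under 0.05, and DESeq2 called 3 members. Between shMif and shSCR 0 of 8 members passed, against 0.0184% of all genes, with 0 members at an unadjusted p under 0.05 and 0 by DESeq2. The difference between the Mif effects of guide and hairpin gave 0 of 8, against 0.092% of all genes, with 2 at an unadjusted p under 0.05 and 1 (Ackr3) by DESeq2. The hairpin controls against the guide controls (shSCR against sgSCR) gave 0 of 8, against 4.02% of all genes, with 0 at an unadjusted p under 0.05 and 0 by DESeq2. Among all 16309 genes tested, 2706 had an unadjusted p under 0.05 in sgMif against sgSCR and 1511 in shMif against shSCR. The count was 2571 for the difference and 3738 for shSCR against sgSCR. DESeq2 called 935 of 15454 genes in sgMif against sgSCR and 169 of 14505 in shMif against shSCR. For the difference it called 578 of 14980, and for shSCR against sgSCR 1830 of 14980. Counts in the gene lists below have the same background. In CPM the sgMif and sgSCR libraries did not overlap for 5 of 8 members, lower for Mif, Cxcr4 and Ackr3 and higher for Cd44 and Cops5, but such separation was seen in 51.3% of all genes tested. Between shMif and shSCR it was seen for Cd44 and Cops5, both lower, against 41.7% of all genes, and in shSCR against sgSCR for Mif, lower, and Cops5, higher, against 54.6%. In these bulk samples, fewer cells of a type and less RNA per cell cannot be told apart.

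**Figure D2:**
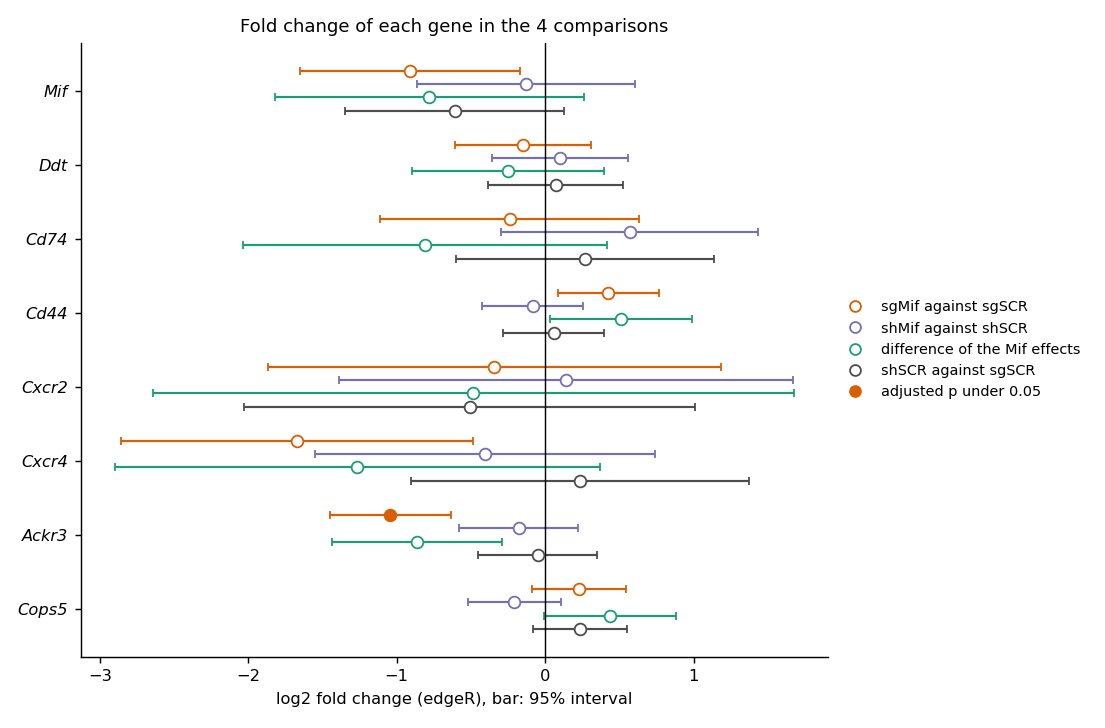
Log2 fold change of each gene (horizontal axis, 0 marked) in the 4 comparisons, as points with bars for the 95% interval from edgeR; filled points have an adjusted p under 0.05. The interval of Ackr3 in sgMif against sgSCR runs from -1.45 to -0.64, and that point alone is filled.

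Mif (ENSMUSG00000033307, minus strand, chr10:75859353-75860240, mm10) stood at 1316 and 1496 TPM in sgSCR 1 and 2 and at 731 and 725 TPM in sgMif 1 and 2. It stood at 624 and 1178 TPM in shSCR 1 and 2 and at 913 and 694 TPM in the libraries labelled shMif 1 and 2. Both sgMif libraries lay below both sgSCR libraries, while both shMif values lay between the values of the shSCR pair. Among all genes Mif ranked between the 95th and the 240th highest by TPM in each library, so its transcript was abundant also where the label reads knockout or knockdown. The transcript level does not bear out the Mif-knockdown label, and the tables hold neither the sequence at the edited site nor the protein.

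Mif in sgMif against sgSCR had a log2 fold change of -0.91 ± 0.32 (SE, 1.88-fold lower, edgeR adjusted p = 0.215). Over 16 alternatives the value ran from -1.04 to -0.75, and 6 of them called it. It did not pass with size factors by relative log expression (edgeR adjusted p = 0.209) or length-scaled counts (0.241). Nor did it pass with protein-coding transcripts alone (0.199), a replicate block (0.184), or on leaving out any library of sgSCR, sgMif or shMif. It passed with DESeq2 (adjusted p = 0.0201), without the filter on low counts (5.4e-05), with the guide libraries fitted alone (0.0384), in the 5 libraries of the high olfactory class (0.00914), without shSCR 1 (0.0296) and without shSCR 2 (0.0322). For shMif against shSCR it was -0.13 ± 0.32 (edgeR adjusted p = 0.925, 95% interval -0.86 to 0.61). The shSCR pair sets its sign: without shSCR 1 the log2 fold change was -0.59, and without shSCR 2 it was 0.55. In the 5 libraries of the high class, with 1 shMif and 1 shSCR library, it was 0.70 (edgeR adjusted p = 0.0377), in a fit that takes its whole spread from the sgSCR pair. Between the controls, shSCR against sgSCR, the value was -0.61 ± 0.32, which did not pass (edgeR adjusted p = 0.300) but did without shSCR 2 (-1.28, adjusted p = 0.00788). The difference of both Mif effects was -0.78 ± 0.45 (edgeR adjusted p = 0.429), and without shSCR 2 it was -1.45 (adjusted p = 0.0284).

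Nearly all Mif reads were assigned to the coding transcript Mif-201, with 98.1 to 99.3% in each library. The only other annotated transcript, Mif-202, keeps the intron between exons 1 and 2, and is named here although its mean share of 1.27% is below the 5% set for naming transcripts. Of the reads on the gene, Mif-202 held 0.689 and 1.47% in the sgSCR pair, 1.87 and 1.89% in the sgMif pair, 0.775 and 1.04% in the shSCR pair, and 0.947 and 1.5% in the shMif pair. Its share was highest in both sgMif libraries, where Mif-201 stood lower than in sgSCR, and its own log2 fold change was -0.12 ± 0.76 (edgeR adjusted p = 1). The joints at the end of exon 1 tell both transcripts apart, while the joint of exons 2 and 3 is in both. Each is shown with 15 bases on either side from the GENCODE M21 transcripts, read 5′ to 3′ on the minus strand. The downstream side is in capitals.
Mif-201 exon 1 to exon 2: ggcaagcccgcacagTACATCGCAGTGCAC
Mif-202 exon 1 into intron 1: ggcaagcccgcacagGTTTGCAGGGAGGAC
Mif-201 exon 2 to exon 3: catcagcccggaccgGGTCTACATCAACTA
Exon 1 ends at chr10:75860061-75860075, exon 2 begins at chr10:75859845-75859859 and ends at chr10:75859687-75859701, exon 3 begins at chr10:75859529-75859543, and the shown intron bases are chr10:75860046-75860060 (mm10, 15 bases each). The joint of exon 1 with the intron occurs in 1 annotated transcript, Mif-202. Each of the other joints occurs in 4 annotated transcripts, since processed pseudogenes are copies of the spliced RNA: the joint of exons 1 and 2 also in Gm10169, Gm16379 and Gm8762, and that of exons 2 and 3 also in Mif-202, Gm10169 and Gm16379. A search with blastn (E value of at most 1e-20) found 8 genes with transcripts like Mif-201, 6 of them processed pseudogenes on the sense strand that are in the tables. Those 6 together held 0 to 25.6 reads per library, at most 0.260% of the reads on Mif. The other 2 match on the antisense strand, were not among the quantified transcripts and were not analysed here. Since the strand setting of the quantification is not given, reads from them could have been counted on Mif.

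Ddt (ENSMUSG00000001666, minus strand, chr10:75771230-75773414), the other ligand of CD74, stayed within a 1.57-fold range. It stood at 52.1 and 58.9 TPM in sgSCR, 53.4 and 44.2 in sgMif, 55.2 and 53.1 in shSCR, and 69.5 and 49.5 in shMif. All groups overlap, and shMif 1 is the highest library. Its log2 fold change was -0.15 ± 0.20 in sgMif against sgSCR (edgeR adjusted p = 0.740, 95% interval -0.61 to 0.31) and 0.10 ± 0.20 in shMif against shSCR (edgeR adjusted p = 0.902, 95% interval -0.36 to 0.56). No rise of the homologue was detected in the sgMif libraries, where the interval reaches up to 0.31 on the log2 scale. The ratio of Mif to Ddt in TPM was 25.2 and 25.4 in sgSCR, 13.7 and 16.4 in sgMif, 11.3 and 22.2 in shSCR, and 13.1 and 14.0 in shMif. Ddt-201 held 89.8 to 97.1% of the reads, and Ddt-202 the rest, at most in shSCR 1 with 10.2%. The readthrough gene Gm20441, which overlaps Ddt, held 6.61 reads in shSCR 2, 1.80 in shMif 2 and 0 in the other libraries.

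Cd74 (ENSMUSG00000024610, plus strand, chromosome 18) encodes the surface receptor of MIF, which is also the invariant chain that guides MHC class II molecules through the cell. It stood at 36.8 and 34 TPM in sgSCR 1 and 2, 23.4 and 34.1 in sgMif, 31.4 and 46.8 in shSCR, and 85.8 and 35.3 in shMif. The single library shMif 1 lies far above the other 7, which span 23.4 to 46.8 TPM. Cd74 had a log2 fold change of -0.24 ± 0.38 in sgMif against sgSCR (edgeR adjusted p = 0.786) and 0.57 ± 0.38 in shMif against shSCR (edgeR adjusted p = 0.660), and without shMif 1 the latter was -0.14. In the 5 libraries of the high class, where shMif 1 is the only shMif library, it was 1.34 (edgeR adjusted p = 0.00610).

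Some immune genes were also highest in shMif 1, and others were not. The MHC class II gene H2-Eb1 stood at 28.3 CPM there and at 4.34 to 13.5 CPM in the other libraries, and H2-Aa at 21.1 against 5.61 to 13.5 CPM. H2-DMb1, a chaperone of class II loading, was instead highest in sgSCR 2 with 19.1 CPM, against 6.38 CPM in shMif 1, and H2-DMa in shSCR 2 with 4.22 CPM, against 4.07 CPM. Ptprc stood at 24.8 against 6.73 to 17.3 CPM. The 6 dendritic cell markers summed to 19.8 CPM in shMif 1 and 9.49 to 14.1 in the others and the 5 T cell markers to 7.67 against 1.32 to 2.84. Among these the dendritic cell genes Clec9a and Cd209a and the T cell genes Cd3d and Cd3g stayed under 1 CPM in every library, and none was at 0 in all. Most of the dendritic cell sum in shMif 1 was Itgax, at 11.8 CPM. Zbtb46 and Xcr1 were instead highest in sgSCR 1, at 5.88 and 1.36 CPM, against 5.66 and 0.309 in shMif 1. The 8 macrophage markers summed to 131 to 357 CPM in sgSCR, 42.7 to 53.0 in sgMif, 78.1 to 113 in shSCR and 87.6 to 165 in shMif, so that their sum was highest in sgSCR 1 and not in shMif 1. In sgSCR 1 that sum held 107 CPM of Mrc1 and 103 of Cd163, against 18.8 and 0.103 in shMif 1. Csf1r, C1qa and C1qc were highest in shMif 1, at 30.7, 30.8 and 25.3 CPM, against 23.1, 30.5 and 23.9 in sgSCR 1. The other macrophage markers were highest in sgSCR 1. The part of these cell types in the Cd74 level was not tested. Of 9 genes of the CD74 and class II list, 0 passed in shMif against shSCR, with a median log2 fold change of 0.61 beside 0.032 for all genes. In shMif 2, H2-Aa, H2-Ab1, H2-Eb1, H2-DMa and H2-DMb1 lay within the shSCR pair, Ciita, Ctss and Sppl2a above it and Ctsl below it. Between shMif and shSCR 1 gene of the list had an unadjusted p under 0.05 and DESeq2 called 1, lower. In sgMif against sgSCR 0 passed, with 2 at an unadjusted p under 0.05 and 2 by DESeq2. The 1 gene of the list called by edgeR was Ctsl, a lysosomal protease that trims the invariant chain, higher in shSCR than in sgSCR by 0.79 ± 0.15 on the log2 scale (edgeR adjusted p = 0.0354). In that comparison 1 of 9 passed, 2 had an unadjusted p under 0.05, and DESeq2 called 1 higher and 1 lower.

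**Figure D3:**
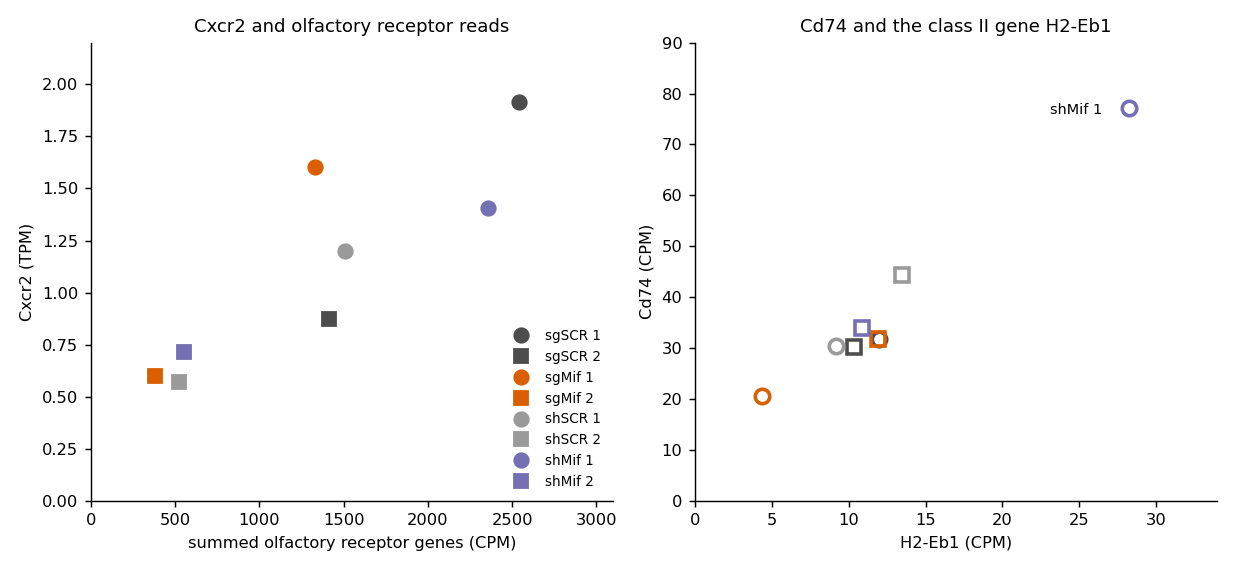
Left, Cxcr2 in TPM against the summed CPM of olfactory receptor genes; right, Cd74 against H2-Eb1, both in CPM, with 1 point per library (colours for groups, circles for replicate 1, squares for replicate 2). The 3 libraries with 379 to 552 olfactory CPM have the 3 lowest Cxcr2 levels, and shMif 1 alone has over 70 CPM of Cd74.

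Cd74 reads were split between Cd74-201, with a mean of 75.5%, and Cd74-202, with 24.2%. Cd74-202 carries 1 extra exon of 192 bases, by which its coding length rises from 645 to 837 bases. Its share was 18.8 and 16.2% in sgSCR, 17.9 and 35.0% in sgMif, 28.7 and 27.4% in shSCR, and 23.2 and 26.4% in shMif. The long form was thus lowest in both sgSCR libraries and sgMif 1, and neither transcript passed in a comparison (edgeR adjusted p of 0.934 and 0.988 in sgMif against sgSCR, 1 for both in shMif against shSCR).

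Cd44 (ENSMUSG00000005087, minus strand, chr2:102811141-102901665) encodes a hyaluronan receptor that acts as the signalling partner of CD74. It stood at 152 and 120 TPM in sgSCR 1 and 2, 194 and 163 in sgMif, 135 and 128 in shSCR, and 141 and 122 in shMif. Both sgMif libraries are the highest of the 8, and the other 3 groups overlap one another. The log2 fold change in sgMif against sgSCR was 0.43 ± 0.15 (1.34-fold, edgeR adjusted p = 0.206), and no alternative called it, with values of 0.28 to 0.60. The value in shMif against shSCR was -0.085 ± 0.15 (edgeR adjusted p = 0.883), and the difference of both effects was 0.51 ± 0.21 (edgeR adjusted p = 0.293).

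Cd44 is spliced into a standard form and variant forms that insert variable exons into the stem of the protein. Cd44-203, the standard form with 9 exons, held 39.1 to 55.0% of the reads, and Cd44-207, with 5 variable exons of 636 bases in all, held 39.8 to 51.6%. Cd44-201, with 10 variable exons of 1245 bases, held 2.76 to 7.60% and is named although its mean of 4.85% is under 5%. Cd44-207 and Cd44-201 also share a last exon that reaches 1406 bases beyond that of Cd44-203, so reads from a long 3′ end and reads from variable exons cannot be told apart in these tables. In TPM, Cd44-203 stood at 80.0 and 68.2 in sgSCR, 109 and 83.9 in sgMif, 91.4 and 71.5 in shSCR, and 71.1 and 72.9 in shMif. Cd44-207 stood at 54.7 and 42.4 TPM in sgSCR, 63.3 and 60.8 in sgMif, 36.7 and 45.3 in shSCR, and 41.0 and 43.3 in shMif. In sgMif against sgSCR their log2 fold changes were 0.44 ± 0.19 and 0.41 ± 0.19, and neither passed (edgeR adjusted p = 0.770 and 0.779). The share of reads on Cd44-203 was highest in the single library shSCR 1, with 55.0% against 39.1 to 46.0% in the other 7. Whether splicing or the 3′ end differs there was not tested.

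A shorter form with a single variable exon of 207 bases, Cd44-206, was chosen after its values were seen. It held 4.20% of Cd44 reads in shMif 1 (285 reads) and 0.0538 to 0.931% in the other 7 libraries. The joints that follow the last constant exon before the variable region are shown for 3 forms, since they are where the forms part: 15 bases on either side, minus strand, GENCODE M21, downstream exon in capitals.
Cd44-203: gcaccttggccaccaGAGATCGAGACTCAT
Cd44-206: gcaccttggccaccaCTAAGAGCGGCGCTA
Cd44-207: gcaccttggccaccaATATAGACAGAATCA
The shared upstream bases are chr2:102853015-102853029, and the downstream bases are chr2:102828596-102828610 in Cd44-203, chr2:102831522-102831536 in Cd44-206 and chr2:102842363-102842377 in Cd44-207 (mm10). Each of these joints occurs in 1 annotated transcript. Esrp1 and Esrp2, the splicing factors that favour variable exons in epithelial cells, were below the filter, with 0 to 2 reads of Esrp1 and 0 to 11 of Esrp2 per library. The other 5 genes listed around CD44 serve its anchoring and shedding, so no regulator of its splicing was tested. Of these 5, 0 passed in sgMif against sgSCR, with 2 at an unadjusted p under 0.05 and 1 by DESeq2. Their median log2 fold change was 0.37 beside -0.0057 for all genes. Between shMif and shSCR 0 passed as well (median -0.25, 2 at an unadjusted p under 0.05, 0 by DESeq2). Msn, the gene of moesin, which ties CD44 to the actin cortex, stood at 795 and 827 CPM in sgSCR, 1473 and 1300 in sgMif, 1551 and 1320 in shSCR, and 1072 and 1189 in shMif. It was the 1 of 5 called in shSCR against sgSCR, higher by 0.82 ± 0.15 (edgeR adjusted p = 0.0278; 2 of 5 at an unadjusted p under 0.05, 1 by DESeq2), and in sgMif against sgSCR it was 0.77 ± 0.15 (edgeR adjusted p = 0.0559).

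**Figure D4:**
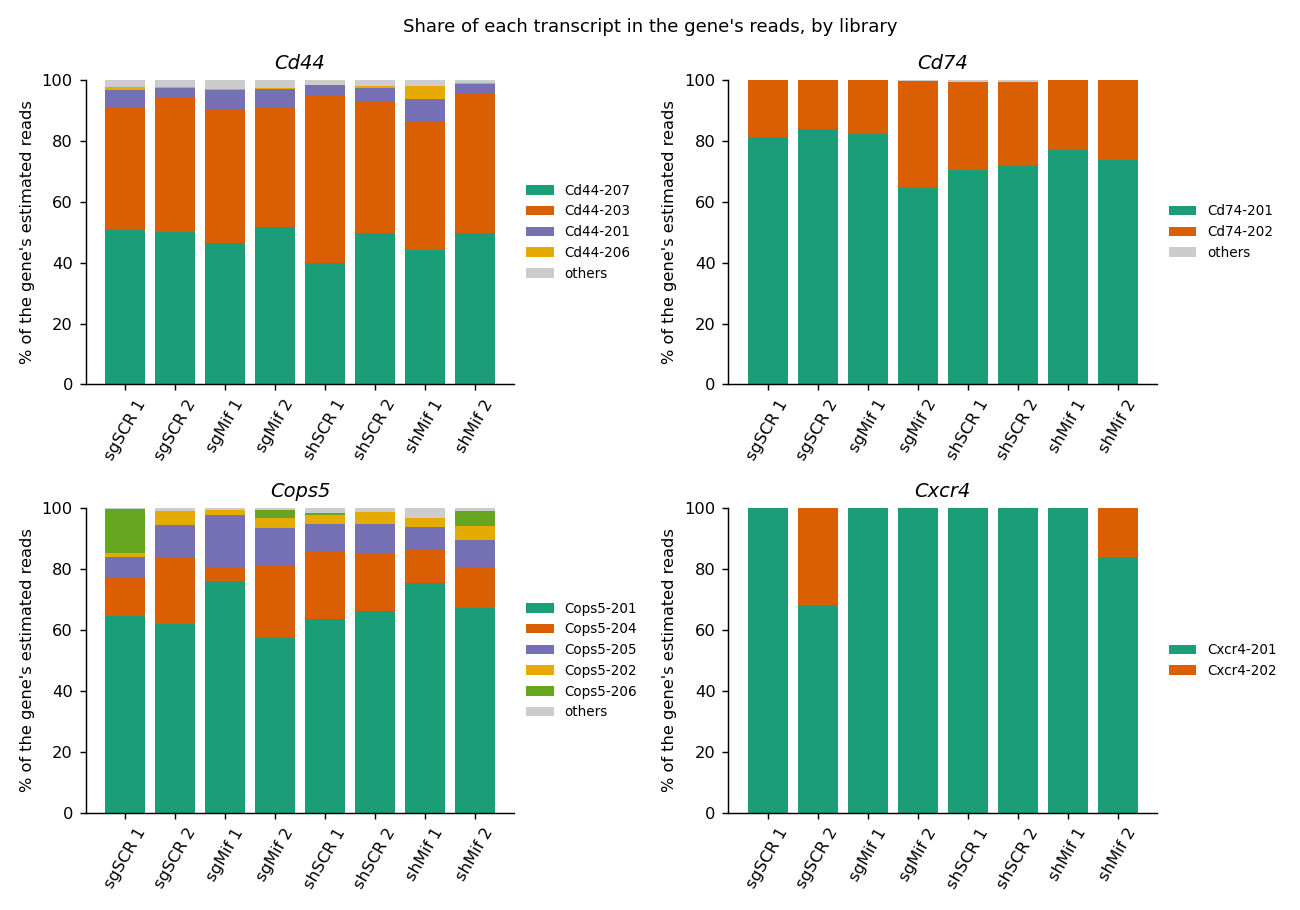
Share of each annotated transcript in the estimated reads of Cd44, Cd74, Cops5 and Cxcr4 (vertical axes, %), with 1 bar per library. Cd44-203 rises to 55.0% in shSCR 1, Cd74-202 to 35.0% in sgMif 2, Cops5-206 to 14.7% in sgSCR 1, and Cxcr4-202 is present in sgSCR 2 and shMif 2 only.

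Cxcr2 (ENSMUSG00000026180, plus strand, chr1:74153989-74161246), a chemokine receptor best known from neutrophils, was barely detected, with 39 to 166 reads per library. It stood at 1.91 and 0.874 TPM in sgSCR 1 and 2, 1.61 and 0.599 in sgMif, 1.2 and 0.573 in shSCR, and 1.40 and 0.713 in shMif. Library 1 exceeded library 2 in every group, and the groups overlap. Cxcr2 had a log2 fold change of -0.34 ± 0.66 in sgMif against sgSCR (edgeR adjusted p = 0.832) and 0.14 ± 0.66 in shMif against shSCR (edgeR adjusted p = 0.965), and the 95% interval of the former ran from -1.87 to 1.18. The 3 lowest libraries were the 3 of the low olfactory class, at 0.573 to 0.713 TPM, against 0.874 to 1.91 TPM in the 5 of the high class. The 6 neutrophil markers summed to 7.03 to 15.9 CPM in sgSCR, 3.83 to 18 in sgMif, 10.3 to 37.4 in shSCR and 7.59 to 37.5 in shMif, and the defining marker Ly6g was at 0 in all 8 libraries. The part of the class or of neutrophils in the Cxcr2 level was not tested. All Cxcr2 reads were assigned to Cxcr2-202.

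Cxcr4 (ENSMUSG00000045382, minus strand, chr1:128588199-128592293) encodes the receptor of the chemokine CXCL12, which MIF can also engage. It stood at 11.8 and 5.74 TPM in sgSCR 1 and 2, 3.27 and 1.72 in sgMif, 10.1 and 7.04 in shSCR, and 7.65 and 7.10 in shMif. Both sgMif libraries are the lowest of the 8, and the sgSCR pair spans the whole range of the other libraries but those. The log2 fold change in sgMif against sgSCR was -1.67 ± 0.52 (3.19-fold lower, edgeR adjusted p = 0.165). DESeq2 called it (adjusted p = 0.0113), as did edgeR without the filter on low counts (0.000404). Its size rests on sgSCR 1, without which it was -0.72 (edgeR adjusted p = 0.589). Its value in shMif against shSCR was -0.41 ± 0.50 (edgeR adjusted p = 0.828). Reads fell on Cxcr4-201 in all libraries, with Cxcr4-202 at 32.0% in sgSCR 2 (33 reads), 16.1% in shMif 2 (45 reads) and 0 in the other 6.

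Ackr3 (ENSMUSG00000044337, plus strand, chr1:90203980-90216751) encodes an atypical chemokine receptor that binds CXCL12 and MIF and removes chemokine from its surroundings. It stood at 68.7 and 79.6 TPM in sgSCR 1 and 2 and at 34.8 and 36.1 in sgMif 1 and 2, a mean of 74.1 ± 7.71 TPM against 35.5 ± 0.954 TPM (SD, n = 2). It stood at 50.3 and 75.4 TPM in shSCR 1 and 2 and at 67.9 and 54.3 in shMif 1 and 2. Both sgMif libraries lie below the other 6, which overlap one another. Ackr3 fell by 1.04 ± 0.18 on the log2 scale in sgMif against sgSCR (2.06-fold lower, 95% interval 1.55 to 2.73, edgeR adjusted p = 0.0413). Between shMif and shSCR the log2 fold change was -0.18 ± 0.17 (edgeR adjusted p = 0.769). The difference of both effects was -0.86 ± 0.25 (unadjusted p = 0.00806, edgeR adjusted p = 0.189), so a difference between the guide and the hairpin was not shown by this test. Between the controls, shSCR against sgSCR, it was -0.051 ± 0.17 (edgeR adjusted p = 0.884, 95% interval -0.45 to 0.35).

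The value of Ackr3 in sgMif against sgSCR hardly moved over 16 alternatives, from -1.14 to -0.92 on the log2 scale, but its call was lost in 7 of them. With counts scaled by transcript length the edgeR adjusted p was 0.131. Without sgSCR 1 it was 0.145, without sgSCR 2 0.227, without sgMif 1 0.160, without sgMif 2 0.198, without shMif 1 0.0722 and without shMif 2 0.0760. The call held without shSCR 1 (0.0195) and without shSCR 2 (0.0212). Ackr3-201 held 98.3 to 99.2% of the reads, and as a transcript it gave -1.01 ± 0.20 (edgeR adjusted p = 0.392), in a test that called 0% of 52980 transcripts. In that transcript test 0 of 24 member transcripts passed, 1 had an unadjusted p under 0.05 (Ackr3-201), and DESeq2 called the same one. In shMif against shSCR the transcript test called 0.00189% of transcripts and 0 of 24 member transcripts, with 0 at an unadjusted p under 0.05 and 0 by DESeq2. Over all transcripts 3518 of 52980 had an unadjusted p under 0.05 in sgMif against sgSCR, and DESeq2 called 1712 of 52156. For shMif against shSCR these were 1793 of 52980 and 785 of 56958.

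**Figure D5:**
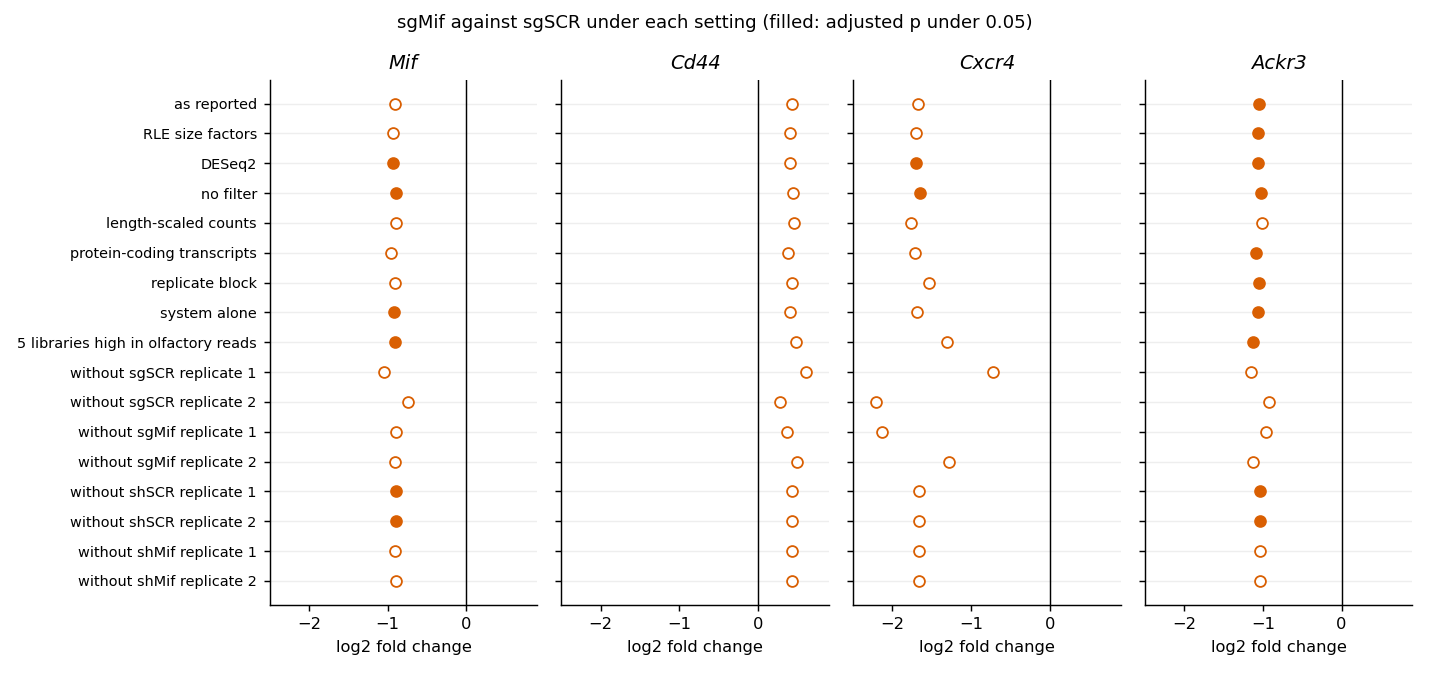
Log2 fold change of Mif, Cd44, Cxcr4 and Ackr3 in sgMif against sgSCR (horizontal axes) as reported and under each of 16 alternatives (rows); filled points have an adjusted p under 0.05. Ackr3 stays between -1.14 and -0.92 and is filled in 9 of 16 alternatives, while Cxcr4 ranges from -2.21 to -0.72.

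Macrophage markers also differed between the guide libraries. Of the 8 macrophage markers 2 passed in sgMif against sgSCR, both lower, beside 0.987% of all genes tested. Mrc1 stood at 107 and 34 CPM in sgSCR, 2.01 and 5.59 in sgMif, 15.5 and 12.4 in shSCR, and 18.8 and 13.9 in shMif. Cd163 stood at 103 and 24.9 CPM in sgSCR, 0 in both sgMif libraries, 0.596 and 0.0202 in shSCR, and 0.103 and 0.341 in shMif. Cd163 was thus low in the hairpin libraries as well, and in shMif against shSCR 0 of 8 passed. The macrophage sums given above were lower in sgMif than in sgSCR, and sgSCR 1, the library with the highest Cxcr4, has the highest sum. The 6 endothelial markers summed to 258 and 272 CPM in the sgSCR pair, 153 and 33.2 in sgMif, 205 and 36.4 in shSCR, and 164 and 49.0 in shMif, none at 0 in all libraries. Most of that sum was Pecam1. Cdh5 stood at 7.14 and 7.48 CPM in sgSCR, and at 26.0 and 5.59 CPM in sgMif 1 and 2. Kdr stood at 2.69 and 1.10 CPM in sgSCR, and at 8.54 and 1.29 CPM in sgMif 1 and 2. Ackr3 stood at 128 and 146 CPM in the sgSCR pair, 62.7 and 69.9 in sgMif, 113 and 151 in shSCR, and 125 and 108 in shMif. The part of macrophage or endothelial reads in Cxcr4 and Ackr3 was not tested.

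Of 12 other ligands of these receptors and enzymes that make them 0 passed in sgMif against sgSCR, where 0.987% of all genes passed, with a median log2 fold change of -0.88 and 10 of 12 below 0, beside a median of -0.0057 for all genes. There 5 had an unadjusted p under 0.05 and DESeq2 called 5, all lower. For shMif against shSCR 0 passed, with a median of 0.22, 5 at an unadjusted p under 0.05 and 3 by DESeq2, all higher. In shSCR against sgSCR 3 of 12 passed, all lower, beside 4.02% of all genes, with 5 at an unadjusted p under 0.05 and DESeq2 calls of 1 higher and 4 lower. Cxcl12, the ligand that CXCR4 and ACKR3 share, stood at 199 and 231 CPM in sgSCR, 230 and 273 in sgMif, 49.8 and 74.3 in shSCR, and 81.7 and 112 in shMif, a fall by 1.79 ± 0.24 on the log2 scale in shSCR against sgSCR (edgeR adjusted p = 0.0113). In sgMif against sgSCR, where Ackr3 fell, the log2 fold change of Cxcl12 was 0.23 ± 0.23 (edgeR adjusted p = 0.651). Has2, which makes the CD44 ligand hyaluronan, fell by 2.17 ± 0.28 in shSCR against sgSCR (edgeR adjusted p = 0.0111). Cxcl5, a ligand of CXCR2, had 361 and 81 reads in sgSCR, 27 and 27 in sgMif, 2 and 2 in shSCR, and 33 and 39 in shMif. It passed in shSCR against sgSCR (edgeR adjusted p = 0.00588) and in the difference of both effects (0.0487), and with 2 reads in each shSCR library no fold is given.

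Cops5 (ENSMUSG00000025917, minus strand, chr1:10024601-10038168), the intracellular partner of MIF, was the steadiest of the 8 genes. It stood at 53.6 and 45.8 TPM in sgSCR, 52.9 and 59.9 in sgMif, 51.7 and 51.5 in shSCR, and 43.9 and 45.2 in shMif. In TPM the shMif libraries are the lowest of the 8, while in CPM sgSCR 2 is the lowest, at 37.0 against 39.3 and 41.5 in shMif. The sgMif and sgSCR pairs overlap in TPM though not in CPM. Cops5 had a log2 fold change of 0.23 ± 0.14 in sgMif against sgSCR (edgeR adjusted p = 0.443), -0.21 ± 0.14 in shMif against shSCR (edgeR adjusted p = 0.658), and the difference of both was 0.44 ± 0.19 (edgeR adjusted p = 0.326). The coding form Cops5-201 held 57.5 to 76.1% of the reads and the short coding form Cops5-205 held 6.72 to 17.3%. Cops5-204, annotated as a target of nonsense-mediated decay, held 4.38 to 23.4%, lowest in sgMif 1 and highest in sgMif 2. The annotation places Cspp1 on the opposite strand over part of Cops5, and since the strand setting of the quantification is not given, some reads could belong to either.

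The 9 other subunits of the COP9 signalosome, the complex that removes the NEDD8 tag from cullin ligases, gave no call. In sgMif against sgSCR 0 of 9 passed, with a median log2 fold change of 0.20, 2 at an unadjusted p under 0.05 and 0 by DESeq2. For shMif against shSCR 0 of 9 passed, with a median of -0.15, 0 at an unadjusted p under 0.05 and 0 by DESeq2. The subunit with the smallest p was Cops9, at 0.57 ± 0.21 in sgMif against sgSCR (edgeR adjusted p = 0.221) and -0.15 ± 0.20 in shMif against shSCR (edgeR adjusted p = 0.842).

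Among 13 genes for the production, export and intracellular partners of MIF, 1 was higher in sgMif against sgSCR and 0 were lower, beside 0.987% of all genes called, with a median log2 fold change of 0.13. There 5 had an unadjusted p under 0.05, and DESeq2 called 2 higher and 2 lower. The gene called by edgeR was Uhrf1, a chromatin regulator that maintains DNA methylation, at 114 and 113 CPM in sgSCR, 199 and 195 in sgMif, 103 and 104 in shSCR, and 108 and 119 in shMif. Uhrf1 rose by 0.80 ± 0.12 in sgMif (edgeR adjusted p = 0.0333), and in shMif against shSCR it was 0.14 ± 0.12 (edgeR adjusted p = 0.736). The difference of both was 0.66 ± 0.17 (edgeR adjusted p = 0.168). Between shMif and shSCR 0 of 13 passed, with a median of -0.13, 3 at an unadjusted p under 0.05 and 0 by DESeq2. Of 13 genes of MIF signalling 0 passed in sgMif against sgSCR (median 0.16, 3 at an unadjusted p under 0.05, 1 by DESeq2) and 0 in shMif against shSCR (median 0.18, 2 at an unadjusted p under 0.05, 0 by DESeq2). The smallest p was that of Arrb1, which encodes a beta-arrestin that couples chemokine receptors to internalisation. Arrb1 stood at 53.6 and 45.2 CPM in sgSCR, 22.2 and 16.2 in sgMif, 49.0 and 35.1 in shSCR, and 43.5 and 32.4 in shMif. Its log2 fold change in sgMif was -1.37 ± 0.25 (edgeR adjusted p = 0.0502) and that in shMif was -0.15 ± 0.24 (edgeR adjusted p = 0.874).

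For each member the genes with the most similar course over the 8 libraries were sought among 14366 protein-coding genes by Pearson's r of log2 CPM, as a description of 8 libraries that share group, depth and class. For Mif these were Sec24b (r = 0.957), Comtd1 (0.934) and Zmiz1 (0.928), and for Ddt they were Slamf7 (0.958), Fgr (0.949) and Il1rl1 (0.938). For Cd74 they were Itgb1bp2 (0.980), H2-Eb1 (0.951) and Lmo7 (0.948). For Cd44 they were Bora (0.967), Nuf2 (0.967) and Kif4 (0.963). For Cxcr2 they were Nsl1 (0.975), Akap6 (0.974) and the olfactory receptor gene Olfr1120 (0.973), and 143 genes reached an r above 0.9, the highest number among the 8 members. For Cxcr4 they were Kcna2 (0.982), Cfap61 (0.980) and Atp8b4 (0.977), and for Ackr3 they were Pla2g12a (0.982), Zfp759 (0.974) and Ackr2 (0.969). For Cops5 they were Utp15 (0.988), Dis3 (0.982) and Mpp1 (0.974). Of these genes Itgb1bp2, Kcna2, Cfap61 and Zfp759 stayed under 1 CPM in all libraries. Among the members themselves the strongest relation was the opposite course of Cd44 and Ackr3 (r = -0.887), and that of Mif and Ddt was 0.146.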

How the data were processed

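The 8 libraries were bulk RNA sequencing of sorted tumour cells. Per the submitters' processing notes, the authors used Trimmomatic and Salmon with build mm10. Not given in the sources used here were versions, the strand setting and the annotation release. Per the file headers, the deposited tables give an estimated count of reads and a TPM value for each of 116546 transcripts. Of these, 115977 were assigned to genes through GENCODE M21. Estimated counts were summed per gene, rounded, filtered (filterByExpr, minimum count 10, total 15), scaled by TMM and tested with edgeR 4.0.16 (R 4.3.3) as 4 group means, with Benjamini-Hochberg adjustment over all genes and a threshold of 0.05. TPM was summed per gene, and CPM was computed from the scaled counts. Transcripts were tested in the same way. Total reads per library were 19042235 to 51819308, and libraries of a group differed by more than counting noise, so depth alone does not set the precision.

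Alternatives were DESeq2 1.42.0, size factors by relative log expression, no filter, length-scaled counts, protein-coding transcripts alone, a replicate block, each system alone, the 5 libraries with over 1000 CPM on olfactory receptor genes, and leaving out each library. On simulated data drawn from these libraries (sgMif against sgSCR, 16309 genes), edgeR recovered 38% of genes changed 2-fold and 83% of those changed 4-fold, with 4 false calls. The simulation gave each gene 1 mean over all libraries and the spread typical of its level. It held neither the olfactory class nor the wider shSCR pair, so recovery and false calls in the real libraries can differ. Copies of Mif were sought with blastn 2.17.0. A list of marker genes of a further immune cell type is not reported here.

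The members and lists were chosen with earlier results of these data known. Named are the 8 members, their transcripts with a mean of at least 5% of reads, the 3 genes most like each member, and, of each list, up to 4 called genes, or the gene with the smallest p where none was called; other names were chosen after their values were seen.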

Additional observations from a re-analysis of the deposited data

How the results depend on the processing

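Of 496 alternative values for the log2 fold changes of the members, 443 kept their direction and side of the threshold, 19 newly passed, 7 no longer passed and 27 changed sign. Members called in sgMif against sgSCR, 1 as reported, were 3 with DESeq2, 3 without the filter, 0 with length-scaled counts, 2 with the system alone, 2 in the 5 libraries of the high olfactory class, and 0 to 2 on leaving out each library. In shMif against shSCR they were 2 in those 5 libraries. For the difference of both effects they were 1 with DESeq2, 1 without the filter, 3 in the 5 libraries and 0 to 2 on leaving out each library, and for shSCR against sgSCR 1 without the filter, 1 in the 5 libraries and 0 to 1 on leaving out each. The 5 libraries leave sgMif, shSCR and shMif with 1 library, assumed to vary like the sgSCR pair. DESeq2 called 1 member transcript in sgMif against sgSCR. The cause of these changes was not tested. In the 5 libraries the sign changed for Mif (0.70) and Ackr3 (0.15) in shMif against shSCR, for Cxcr2 in sgMif against sgSCR (0.19) and in the difference (0.13), and for Cd74 in shSCR against sgSCR (-0.026). Leaving out each library moved sgMif against sgSCR from -0.58 to 0.039 for Cd74 and from -1.15 to 0.31 for Cxcr2, and the difference for Cxcr2 from -1.25 to 0.21. It moved shMif against shSCR from -0.59 to 0.55 for Mif, -0.11 to 0.28 for Ddt, -0.14 to 1.04 for Cd74, -0.34 to 0.79 for Cxcr2 and -0.38 to 0.043 for Ackr3. It moved shSCR against sgSCR from -0.028 to 0.22 for Ddt, -0.022 to 0.53 for Cd74, -0.072 to 0.25 for Cd44, -1.15 to 0.17 for Cxcr2, -0.29 to 1.21 for Cxcr4 and -0.27 to 0.15 for Ackr3. Where a group was left with 1 library, it was assumed to vary like the others. Same-numbered libraries deviated together by a correlation of 0.182 in the guide system and 0.263 in the hairpin system, but no label ties the numbers, and with 2 pairs they were not taken as pairs. With the replicate block Ackr3 in sgMif was -1.04 (edgeR adjusted p = 0.0489), 1 member was called there, and Cd44 in shSCR against sgSCR was -0.042. Cxcr2 is limited by depth, at 39 to 166 reads.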
